A study of Mus musculus with 8 samples.

Results

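The genes described here encode the proteins of the cytosolic ribosome. They were taken from the array's annotation by symbol, as every gene whose symbol begins with Rpl or Rps and a digit, or with Rplp, leaving out the Rps6k kinases, Rps19bp1 and symbols marked as pseudogenes. The rule found 64 of the 16593 genes on the array: 3 genes of the acidic stalk, 32 of the large subunit, 22 of the small subunit, 6 paralogs (Rpl3l, Rpl7l1, Rpl22l1, Rpl36al, Rpl39l and Rps27l) and 1 retrogene, Rps23rg1. Of these, 58 had a probe above background on at least 2 arrays and were among the 10219 genes tested. The other 6, Rpl14, Rpl17, Rpl39l, Rplp2, Rps23 and Rps23rg1, were not above background on more than 1 array, and no change is given for them.

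The ribosome translates mRNA into protein. Its small subunit reads the mRNA, its large subunit joins the amino acids, and the acidic stalk of the large subunit (Rplp0, Rplp1 and Rplp2) recruits the elongation factors. In mammals the mRNAs of most ribosomal proteins begin with a run of pyrimidines, known as a 5′ terminal oligopyrimidine (TOP) tract, through which the kinase complex mTORC1 controls their translation together. Growing lymphocytes and erythroid precursors make many ribosomes, and granulocytes hold fewer as they mature.

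Spleen cells were sorted with magnetic beads for Gr1, a surface marker mostly of granulocytes, and their RNA was hybridised to Illumina MouseRef-8 v2 bead arrays. The donors were female C57BL/6 mice aged 6 to 8 weeks. PBS mice (2 arrays, numbered 1 and 3) received PBS into the peritoneum and then PBS in place of HY209. LPS mice (3 arrays) received LPS, the bacterial endotoxin, and then PBS, and LPS+HY209 mice (3 arrays) received LPS and, 30 min later, intravenous HY209 (sodium taurodeoxycholate, a bile salt). Spleens were taken 48 h after the first injection and pooled, from 10 to 15 mice by one label and from 30 to 40 by the design text, and the labels call the arrays of a group separate biological samples. Since these texts differ, it is unclear whether each array had a pool of its own, and the p-values and standard errors measure only the spread between arrays, which may be technical. No group received HY209 without LPS, so its action on unstimulated cells is not measured.

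The deposited values are quantile-normalized intensities, with a median of 169.7 and a highest value of 66399 on every array, and 50.6% of probes lay above the background bound of 168.8. In what follows, intensities are the deposited values. Folds and log2 changes come from the limma fit after background correction, and ± is the standard error of that fit unless marked as SD. A gene is said to rise or fall where its Benjamini-Hochberg adjusted p over the 10219 genes is under 0.05.

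Markers of several cell types were present in the sorted cells and moved between the groups. Itgam, which encodes the CD11b chain that over 95% of the sorted cells carried by the labels, had 506 and 565 on the PBS arrays and 2246 to 3129 on the others. The summed intensity of the 9 B cell markers on the array was 77092 to 79029 in PBS, 14629 to 15080 after LPS and 22474 to 24304 with HY209. For 7 erythroid markers it was 82520 to 83987, 27373 to 30420 and 47906 to 60127. It was 58326 to 62473, 16068 to 16213 and 18667 to 22221 for 9 T and NK cell markers, 161023 to 168528, 36546 to 39250 and 27221 to 30441 for 8 macrophage markers, and 8393 to 9280, 2480 to 2503 and 3599 to 5328 for 10 endothelial markers. The 11 neutrophil markers summed to 269308 to 279452, 308701 to 320064 and 298449 to 307921. On each array 7 or 8 of the 9 B cell, 6 or 7 of the 9 T and NK cell, 5 or 6 of the 7 erythroid, 8 of the 8 macrophage, 6 to 9 of the 10 endothelial and 10 or 11 of the 11 neutrophil markers were above background. After LPS 8 of 8 tested B cell markers fell, as did 6 of 6 T and NK cell, 6 of 6 erythroid, 7 of 8 macrophage and 9 of 10 endothelial markers, while 5 of 11 neutrophil markers rose and 2 fell. Of all genes tested, 30.2% fell and 25.7% rose after LPS, against 18.2% and 45.5% of the neutrophil markers. The part of these markers in the changes below was not tested. In such pooled sorts, fewer cells of a type and less RNA per cell cannot be told apart.

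The start regions of 8 of the genes are shown first, because the TOP tract is the sequence feature this family is known for. They are 5 genes that fell after LPS (Rpl27a, Rpl13a, Rps15, Rps6 and Rpl35), 1 that did not pass the test (Rpl41) and a pair that rose (Rpl24 and Rpl7a). Each line runs from 40 bases before the annotated RefSeq start to 20 bases after it on the gene's strand (GRCm38.p6), with runs of at least 8 pyrimidines that lie within 25 bases of the start in capitals.
Rpl27a (chr7:109519155-109519214, + strand): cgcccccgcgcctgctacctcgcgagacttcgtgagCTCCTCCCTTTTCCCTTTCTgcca
Rpl13a (chr7:45128726-45128785, - strand): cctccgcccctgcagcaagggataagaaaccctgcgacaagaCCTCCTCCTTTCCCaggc
Rps15 (chr10:80292391-80292450, + strand): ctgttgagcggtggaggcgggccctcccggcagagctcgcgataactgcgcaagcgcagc
Rps6 (chr4:86857348-86857407, - strand): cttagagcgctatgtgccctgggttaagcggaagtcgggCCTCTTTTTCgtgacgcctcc
Rpl35 (chr2:39005112-39005171, - strand): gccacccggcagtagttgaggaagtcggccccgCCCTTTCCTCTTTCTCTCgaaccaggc
Rpl41 (chr10:128549149-128549208, - strand): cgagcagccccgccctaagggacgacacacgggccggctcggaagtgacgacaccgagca
Rpl24 (chr16:55966235-55966294, + strand): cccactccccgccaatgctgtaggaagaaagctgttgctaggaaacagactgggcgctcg
Rpl7a (chr2:26910767-26910826, + strand): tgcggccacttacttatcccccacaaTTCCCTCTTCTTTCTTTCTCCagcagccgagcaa

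A run of at least 8 letters C or T on the gene's strand within this distance was found for 28 of the 55 genes with an entry in the RefSeq table (50.9%), against 22.4% of the 13336 genes on the array with an entry. The letters CCGGAAG, which hold the GGAA core of ETS factor motifs, stood on either strand of the 300 bases around the start in 38.2% of the ribosomal protein genes and in 13.9% of the array's genes. After LPS the median log2 change was -0.56 over 24 tested genes with a pyrimidine run and -0.62 over 26 without, and 21 and 19 of them fell. Both Rpl27a, which fell, and Rpl7a, which rose, carry long runs. A match shows only that the letters stand in this window, and annotated starts can lie some bases from the real ones. The split is by this run and not by TOP tract, since a run may lie before the start and shorter runs are not counted.

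The first comparison, LPS against PBS, asks what endotoxin did to these genes. Most ribosomal protein mRNAs were lower in the LPS arrays. Of the 58 tested, 46 fell and 4 rose, where 30.2% of all genes tested fell and 25.7% rose. Together 50 changed, against 55.9% of all genes. Their median log2 change was -0.59, against -0.00 over all genes. For 55 of the 58 no LPS array lay among the PBS arrays (50 lower and 5 higher), against 71.3% of all genes (37.4% lower and 33.8% higher). The median intensity of the 58 on each array was 25940 and 28533 in PBS and 16364 to 16423 after LPS. The change was a 2-fold or larger decrease in 9 genes (15.5%), against 8.17% of all genes.

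**Figure D1:**
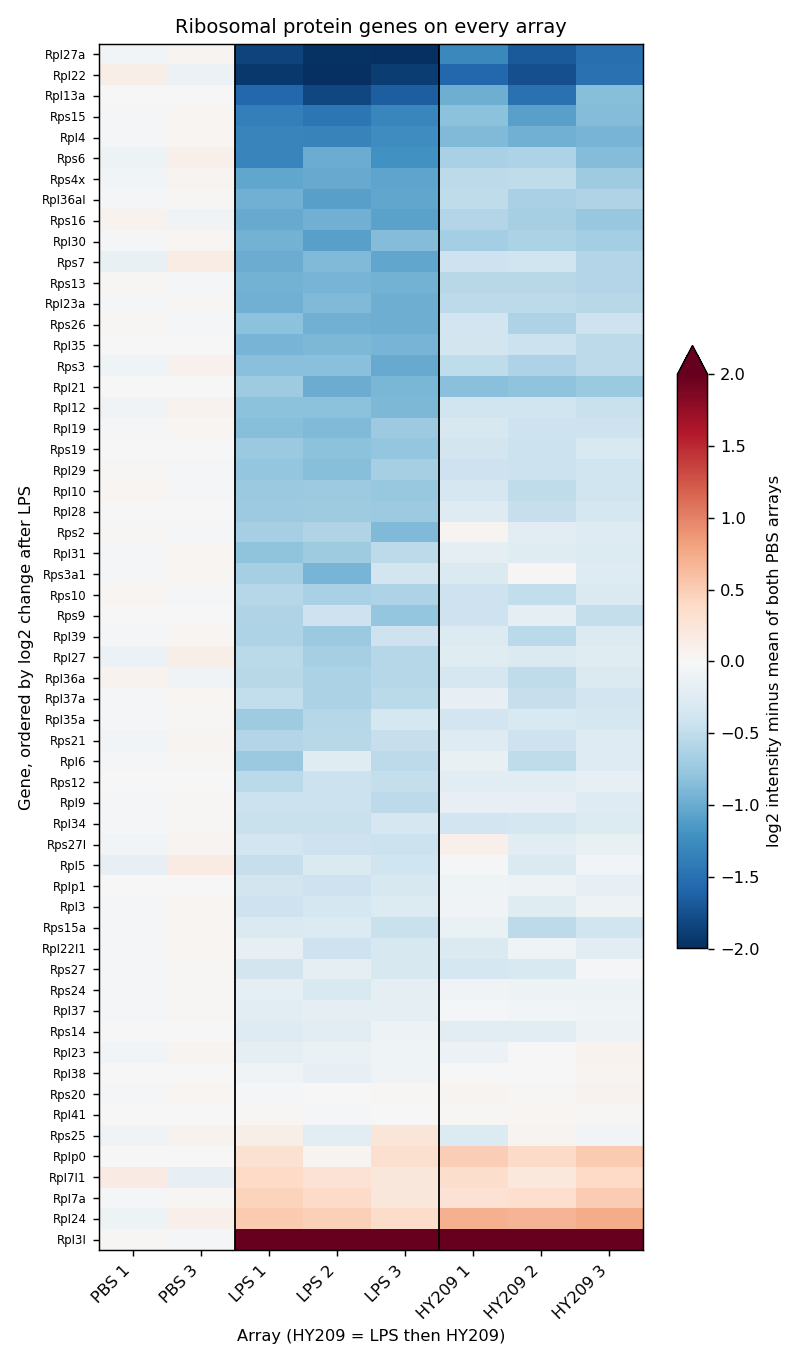
Log2 intensity of the 58 tested ribosomal protein genes (rows, ordered by their change after LPS) on each of the 8 arrays (columns), less the mean of both PBS arrays; blue is lower and red is higher than PBS. The 3 LPS columns are the bluest for most rows, the 3 HY209 columns are paler, and Rpl3l at the bottom, with a log2 change of 2.81, is beyond the end of the colour scale in all 6.

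In the acidic stalk, Rplp1 had 66399 on both PBS arrays, which is the highest value the scale holds, and 51246, 49860 and 53135 after LPS. Its fall was 0.37 ± 0.09 on the log2 scale (adjusted p = 0.0028), and a probe at the top of the scale may have changed more than that. Rplp0, the stalk's base, had 820 and 836 in PBS and 1002, 854 and 1022 after LPS, with a log2 change of 0.22 ± 0.10 (adjusted p = 0.088). That probe's arrays did not overlap, yet its change did not pass the test.

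Of 30 large subunit genes tested, 24 fell and 2 rose, with a median log2 change of -0.59. Rpl27a had 2361 and 2517 in PBS and 722, 668 and 611 after LPS. This was the largest fall of all 58 genes, 3.97-fold (log2 change -1.99 ± 0.12, adjusted p = 6.8e-08). Rpl22, which is not needed for general translation in mice but for lymphocyte development, had 4120 and 3489 in PBS and 1049, 1001 and 1063 after LPS, a 3.84-fold fall (-1.94 ± 0.11, adjusted p = 3.0e-08). Rpl13a, known in human monocytes as a translational silencer when released from the ribosome, had 4275 and 4343 in PBS and 1502, 1272 and 1421 after LPS (-1.68 ± 0.16, adjusted p = 2.6e-06). For all 3 genes every LPS array lay far below both PBS arrays. Rpl4, a protein that lines the exit tunnel of the nascent chain, fell 2.46-fold (-1.30 ± 0.09) and Rpl30 fell 1.96-fold (-0.97 ± 0.09).

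Rpl3, near the catalytic centre, and Rpl5, which binds the 5S rRNA and the p53 regulator Mdm2, fell less, by 0.34 ± 0.09 and 0.38 ± 0.12 on the log2 scale (adjusted p = 0.0093 and 0.016). Without PBS array 3 both calls were lost, with adjusted p = 0.083 and 0.22, and the change of Rpl5 was -0.23. Rpl41, the shortest ribosomal protein, had 63055 and 64085 in PBS and 64351, 62809 and 63741 after LPS, with a change of 0.00 ± 0.08 (adjusted p = 0.99). Its groups overlapped, close to the top of the scale. Rpl24, an intersubunit bridge protein, rose from 393 and 441 to 568, 550 and 515 (0.45 ± 0.10, adjusted p = 0.0016), and Rpl7a rose from 197 and 200 to 245, 239 and 221 (0.35 ± 0.10, adjusted p = 0.011). Both risers have dim probes, 1 each, near the background bound in the case of Rpl7a, whose call was lost in 1 alternative (adjusted p = 0.070).

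Of 21 small subunit genes tested, 18 fell and 0 rose, with a median log2 change of -0.66. Rps15 had 16788 and 17539 in PBS and 6710, 6364 and 6975 after LPS, a 2.59-fold fall (-1.37 ± 0.10, adjusted p = 3.0e-07). Rps6, the substrate of the S6 kinases downstream of mTORC1, had 24623 and 28433 in PBS and 10609, 13325 and 11425 after LPS (-1.18 ± 0.12, adjusted p = 5.6e-06). The groups did not overlap for either gene. Rps4x fell 2.05-fold and Rps16 2.02-fold, while Rps19, which is mutated in human Diamond-Blackfan anemia, fell from 56510 and 57375 to 34091, 32126 and 33177 (-0.78 ± 0.09, adjusted p = 9.4e-06). At the other end, Rps20 (-0.00 ± 0.09), Rps25 (0.05 ± 0.14) and Rps14 (-0.19 ± 0.09) did not pass the test. Rps25, which viral internal entry sites need, had 9331 and 10329 in PBS and 10647, 8481 and 11582 after LPS, with overlapping groups.

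Of the 5 paralogs tested, 3 fell and 2 rose. Rpl3l, a paralog of Rpl3 known from striated muscle, had 1932 and 1872 in PBS and 13934, 11867 and 13177 after LPS. It rose 7.03-fold (2.81 ± 0.10, adjusted p = 5.4e-10), the opposite direction to its parent. The array holds 1 probe for it, and the next gene on the chromosome, Msrb1, a methionine sulfoxide reductase on the same strand, begins 449 bases past its annotated end (chromosome 17, GRCm38.p6). Msrb1 had 13591 and 12791 in PBS and 20920, 19666 and 23970 after LPS (0.70 ± 0.11). Whether the Rpl3l probe reads transcript of its neighbour was not tested, and Msrb1 itself was chosen after the values were seen. Rpl7l1, a nucleolar relative of Rpl7, rose by a log2 change of 0.31 ± 0.12 (adjusted p = 0.039, and up to 0.43 in 5 alternatives that ended the call). Rpl36al fell 2.04-fold (-1.03 ± 0.09) beside Rpl36a at -0.58 ± 0.10, and Rps27l, induced by p53, fell by 0.41 ± 0.11 on the log2 scale beside Rps27 at -0.29 ± 0.11. Rpl22l1 had 177 and 183 in PBS and was not above background on any LPS array, so its difference is given as at least 1.11-fold, and the same holds for Rpl6, at least 1.10-fold. Both passed the filter through their PBS arrays and had no LPS array above background, so their calls (adjusted p = 0.027 and 0.010) could go in no other direction. Without them 44 of 56 genes fell (78.6%).

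**Figure D2:**
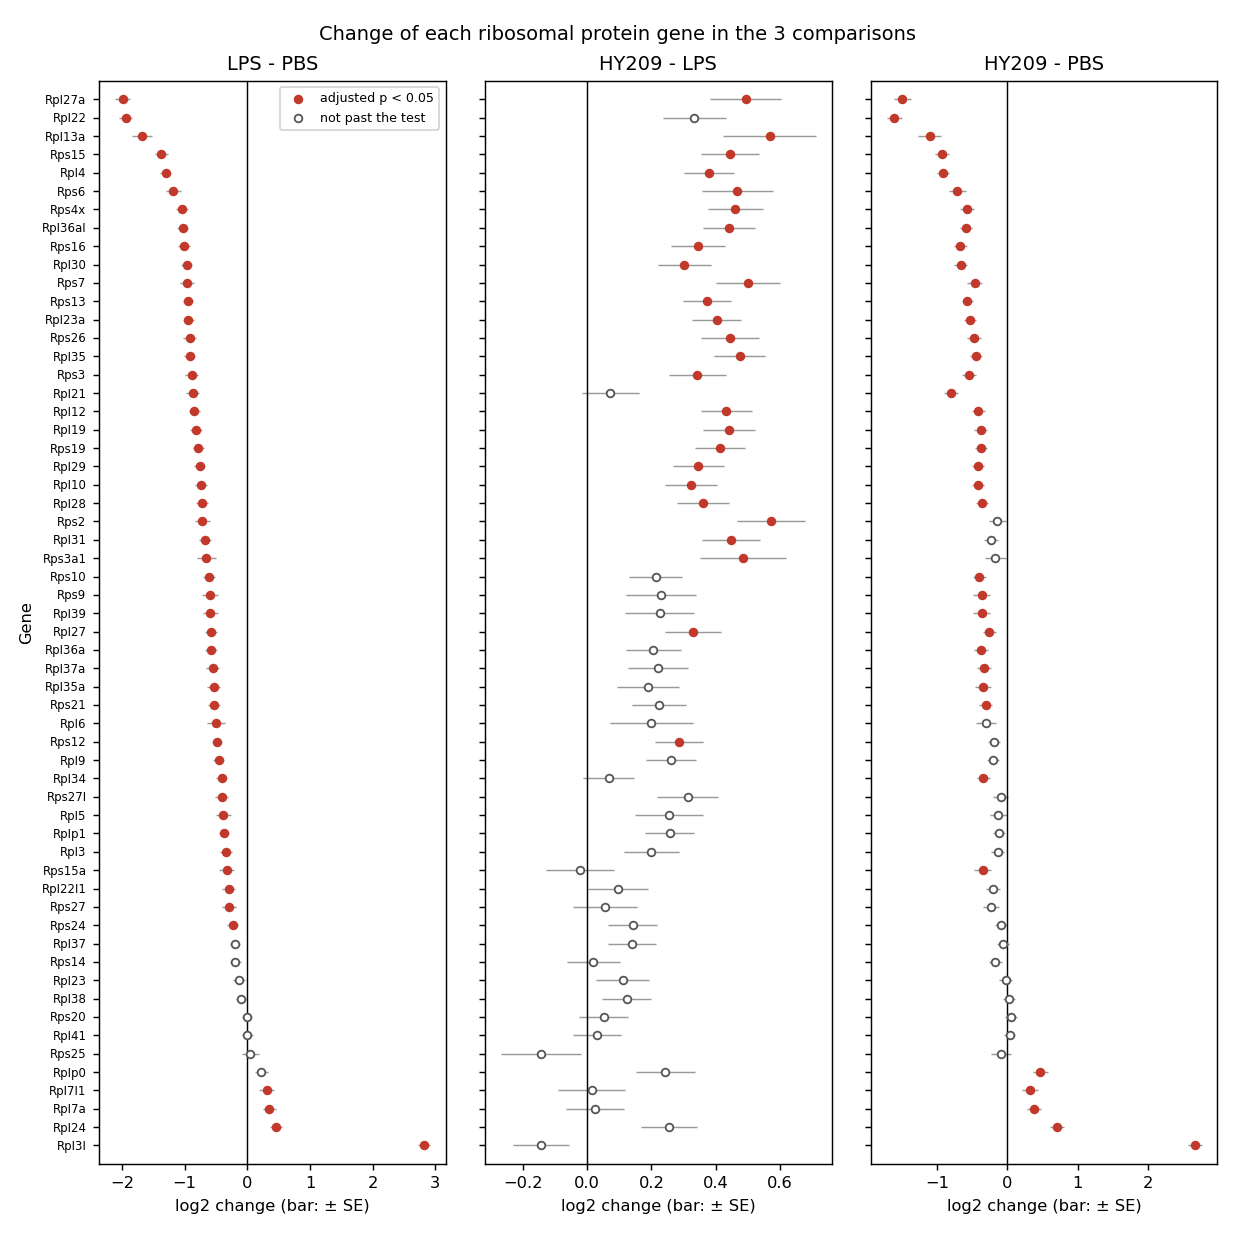
Log2 change (points) with its standard error (bars) of the 58 genes for LPS less PBS, LPS+HY209 less LPS and LPS+HY209 less PBS, each panel with its own scale, and filled points past the test. In the left panel 46 points lie left of 0 and pass, in the middle panel 26 lie right of 0 and pass with none passing on the left, and in the right panel 33 pass on the left.

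Most of these calls stayed when single arrays were left out. For each of the 46 falls no LPS array lay among the PBS arrays, so leaving out a single array could not change the sign. The fits without an HY209 array also leave the estimated change as it was. Of the 46 falls, 38 kept their call in all 8 such fits. Of the 4 rises, Rpl24 and Rpl3l kept theirs in all 8. Over all 18 alternatives 10 of the 46 falls lost their call at least once, among them Rpl3, Rpl5, Rpl6, Rps9, Rps19 and Rps27l, which did so in 1 or 2. The stricter filter on dim probes left out Rpl6 and Rpl22l1, so only 17 alternatives cover these genes. Rps24 (8 lost calls), Rps27 (7), Rpl22l1 (6) and Rps15a (6) were the falls that lost their call most often, with an adjusted p of up to 0.16, 0.19, 0.15 and 0.18.

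The brightest probes changed least. Among 9 genes with a mean intensity of 40000 or more, 5 fell, with a median log2 change of -0.24 and the largest fall at -0.78. Of 21 genes between 20000 and 40000, 19 fell with a median of -0.72, of 13 between 5000 and 20000, 11 fell with a median of -0.59, and of 15 below 5000, 11 fell with a median of -0.66. Rps4x, Rpl35, Rps26 and Rps14 had PBS means of 53641, 42548, 42554 and 41893 but count between 20000 and 40000 here. Their log2 changes were -1.04, -0.92, -0.92 and -0.19, so the small changes of the brightest genes follow in part from the grouping. Quantile normalization holds the top of the scale at 66399, and compression there was not measured apart from the change itself.

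**Figure D3:**
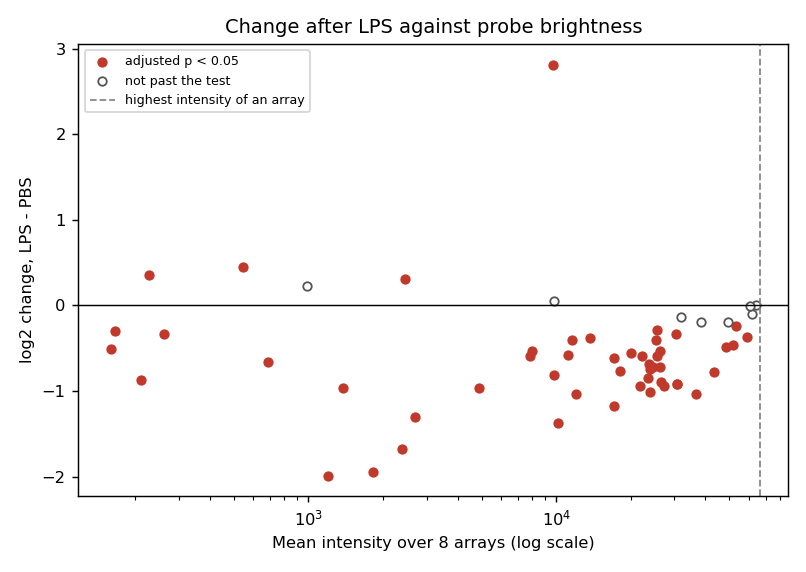
Log2 change after LPS of the 58 genes against their mean intensity over the 8 arrays (log scale), with filled points past the test and a dashed line at the highest intensity of 66399. The points nearest the dashed line lie close to 0, and the 3 largest falls, to -1.99, lie left of 5000.

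The other probes of a gene gave a check on the chosen one, in a fit over the 13829 probes with a gene symbol above background, with p adjusted over these. For 10 genes, 11 further probes were above background, and 9 of these had the sign of the main probe after LPS and 6 its call, with 0 calls in opposite directions. Rpl23 did not pass the test on its brightest probe (32126 and 34293 in PBS, 29467, 30308 and 31132 after LPS) but fell by both others, at -1.21 ± 0.13 and -1.41 ± 0.20 (adjusted p = 1.0e-05 and 7.8e-05). The second probe of Rps24 fell from 714 and 726 to 339, 367 and 372 (-1.16 ± 0.16), where the bright one fell by 0.24 ± 0.09. Rps9, a small subunit protein, had 31857 and 32510 in PBS and 21246, 24252 and 18805 after LPS on its main probe, which fell, but its second probe did not pass the test (-0.27 ± 0.12, adjusted p = 0.081). Rpl31 fell by both probes, at -0.68 ± 0.10 and -1.57 ± 0.11. The second probe of Rpl38 rose, from 409 and 387 to 596, 527 and 604 (0.62 ± 0.12), while the main one, at 62583 and 62809 in PBS, did not pass the test. The dim second probe of Rps19 had 171 and 178 in PBS, near background, with a change of 0.07 ± 0.10. Ribosomal protein genes have many processed pseudogenes and near-identical copies, so each probe's signal is uncertain in its source.

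**Figure D4:**
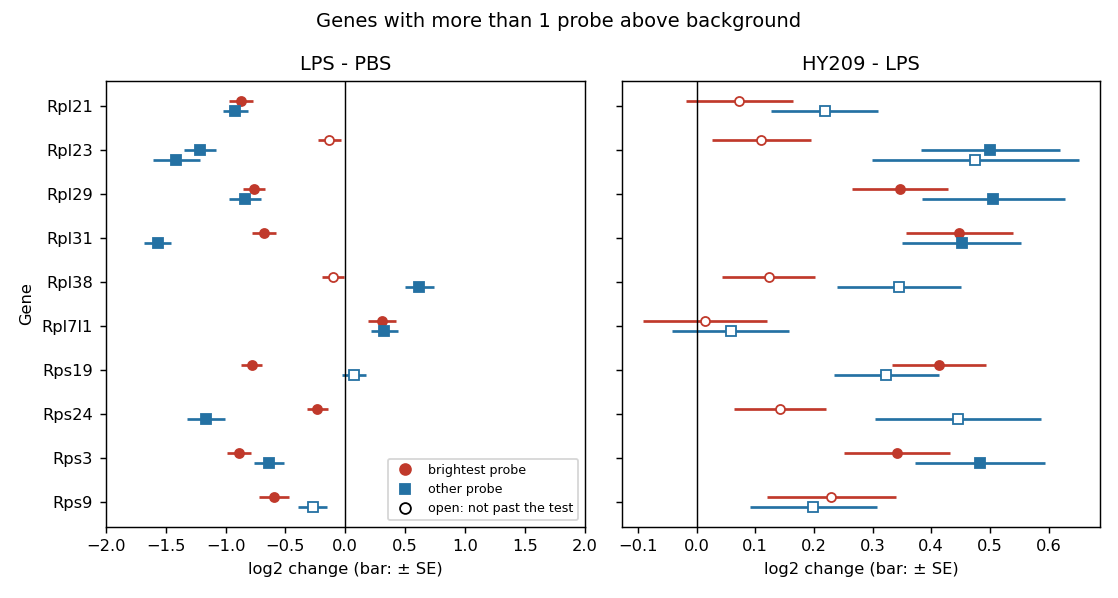
Log2 change with its standard error for each probe of the 10 genes with more than 1 probe above background, for LPS less PBS (left) and LPS+HY209 less LPS (right), with circles for the brightest probe, squares for the others and filled symbols past the test. In the left panel the probes of Rpl23, Rpl31, Rpl38, Rps19 and Rps24 lie apart, and in the right panel every probe lies right of 0.

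The second comparison, LPS+HY209 against LPS alone, asks what the bile salt added. With limma, 26 of the 58 rose and 0 fell, where 6.15% of all genes rose, 3.48% fell and 9.63% changed either way, and their median log2 change was 0.26, a 1.20-fold higher signal, against -0.01 over all genes. The count of falls was 0 in each of the 18 alternatives as well. The HY209 arrays lay above the LPS arrays without overlap for 42 of the 58, against 14.5% of all genes, and 0 lay below, against 14.7% (29.3% either way). The median intensity of the 58 was 21955, 18685 and 20096 on the HY209 arrays, above the 16364 to 16423 of the LPS arrays and below both PBS arrays. All changes were small, at most 0.57 on the log2 scale, and the LPS arrays are also part of the comparison above.

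The count rests on few arrays. It was 11 without HY209 array 1, 14 without LPS array 1 and 16 without LPS array 3, and 18 to 25 without any other array. Among all genes tested 628 rose, and 258, 372 and 358 did so without HY209 array 1, LPS array 1 and LPS array 3. The lower counts were thus not particular to the ribosomal protein genes. Their median log2 change was 0.250 to 0.297 without single arrays. The HY209 and LPS arrays did not overlap for any of the 26 genes, so leaving out a single array could not change their sign. The fits without a PBS array also leave the estimated change as it was. In all of these 8 fits 11 genes kept their call: Rpl12, Rpl19, Rpl23a, Rpl31, Rpl35, Rpl36al, Rps2, Rps4x, Rps7, Rps13 and Rps19. The dim second probe of Rps19 did not pass the test (0.32 ± 0.09, adjusted p = 0.051, in the fit over 13829 probes). HY209 array 1 was the highest of its group in median ribosomal protein intensity. It also had the highest sums of the erythroid (60127), T and NK cell (22221) and endothelial (5328) markers. Its sums of the B cell (22474) and neutrophil (298449) markers were the lowest of the group, and its macrophage sum (27428) lay between the others. In this comparison 6 of 6 tested erythroid markers, 6 of 8 B cell markers and 7 of 10 endothelial markers rose, 1 of 6 T and NK cell markers rose, 5 of 8 macrophage markers fell, and 0 of 11 neutrophil markers changed. Their part in the result was not tested.

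Among 30 large subunit genes, 13 rose. Rpl13a had 1502, 1272 and 1421 with LPS and 2228, 1572 and 2410 with HY209 (0.57 ± 0.14, adjusted p = 0.030, and up to 0.12 in 8 alternatives that ended the call). Rpl35 had 22431, 22881 and 22383 with LPS and 32923, 31710 and 29467 with HY209, a 1.39-fold rise (0.47 ± 0.08, adjusted p = 0.0046). Rpl27a rose from 722, 668 and 611 to 1041, 805 and 898 (0.49 ± 0.11, adjusted p = 0.018, and up to 0.073 in 2 alternatives that ended the call). The groups did not overlap in any of these, and HY209 array 2 was the lowest of its group for Rpl13a and Rpl27a. Rpl31 rose by 0.45 ± 0.09 on its main probe and by 0.45 ± 0.10 on its second (adjusted p = 0.015 and 0.022, both in the fit over 13829 probes). In that fit the main probe of Rpl23 did not pass the test (0.11 ± 0.08). Of its other probes 1 rose (0.50 ± 0.12, adjusted p = 0.027) and 1 did not pass (0.48 ± 0.18, adjusted p = 0.13). Rpl22 had 1317, 1166 and 1395 with HY209, all above its LPS arrays, and did not pass the test (0.33 ± 0.10, adjusted p = 0.055).

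Of 21 small subunit genes, 12 rose. Rps2, at the mRNA entry channel, had 20300, 21154 and 17442 with LPS and 33177, 27559 and 26870 with HY209. It rose 1.49-fold (0.57 ± 0.11, adjusted p = 0.0079), the largest change among the 58, and its HY209 arrays overlapped its PBS arrays of 32510 and 31710. Rps7 rose from 3467, 3734 and 3334 to 5135, 5157 and 4538 (0.50 ± 0.10, adjusted p = 0.010), Rps3a1 by 0.48 ± 0.13 (adjusted p = 0.042, and up to 0.11 in 10 alternatives that ended the call) and Rps6 by 0.47 ± 0.11 (adjusted p = 0.022, and up to 0.090 in 4 such alternatives). Rps4x (0.46 ± 0.09) and Rps26 (0.45 ± 0.09) rose as well. No stalk gene passed the test, with Rplp1 at 0.26 ± 0.08 (adjusted p = 0.056) and Rplp0 at 0.24 ± 0.09 (adjusted p = 0.13). Of the paralogs, Rpl36al rose 1.36-fold (0.44 ± 0.08, adjusted p = 0.0076), and Rpl3l had 11114, 12151 and 11971, overlapping its LPS arrays (-0.14 ± 0.09, adjusted p = 0.33). The smallest changes were those of Rpl7l1 (0.01 ± 0.10), Rps14 (0.02 ± 0.08) and Rps15a (-0.02 ± 0.11).

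**Figure D5:**
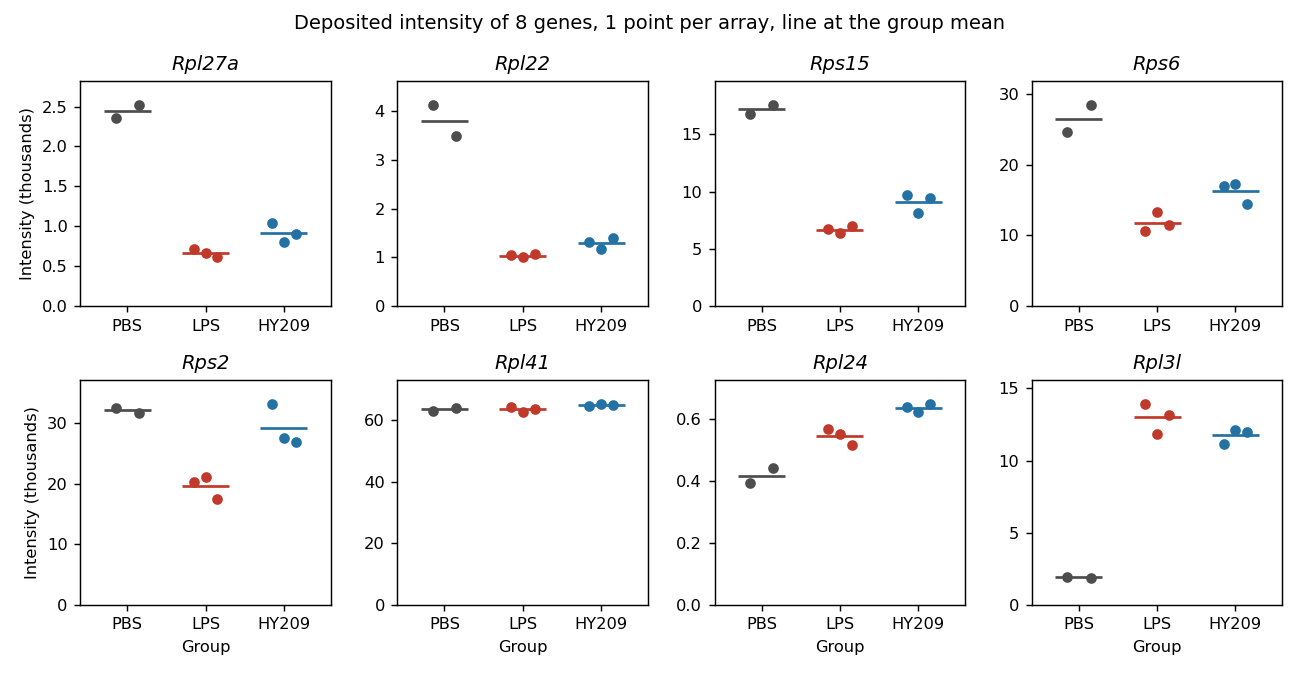
Deposited intensity (axes from 0) of 8 genes in the 3 groups, with 1 point per array and a line at the group mean. Rpl27a, Rpl22, Rps15 and Rps6 show PBS highest, LPS lowest and HY209 between, the HY209 points of Rps2 reach the PBS points, Rpl41 is level, and Rpl24 and Rpl3l are lowest in PBS.

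The third comparison, LPS+HY209 against PBS, shows where the HY209 arrays stood relative to PBS. It shares its arrays with both comparisons above and adds no independent evidence. Of the 58 genes, 33 were lower and 5 higher, where 26.1% of all genes were lower, 21.6% higher and 47.7% changed either way, with a median log2 change of -0.34. The HY209 and PBS arrays were fully separate for 49 of them (43 lower and 6 higher), against 64.7% of all genes (33.9% lower and 30.9% higher). The largest falls were those of Rpl22 (-1.61 ± 0.11, adjusted p = 1.9e-07), Rpl27a (-1.49 ± 0.12), Rpl13a (-1.11 ± 0.16), Rps15 (-0.93 ± 0.10), Rpl4 (-0.92 ± 0.09), Rpl21 (-0.80 ± 0.10), Rps6 (-0.71 ± 0.12), Rps16 (-0.67 ± 0.09), Rpl30 (-0.67 ± 0.09) and Rpl36al (-0.59 ± 0.09). Higher than in PBS were Rpl3l (2.67 ± 0.10), Rpl24 (0.71 ± 0.10, adjusted p = 7.0e-05), Rplp0 (0.47 ± 0.10, adjusted p = 0.0027), Rpl7a (0.38 ± 0.10) and Rpl7l1 (0.32 ± 0.12, adjusted p = 0.037). When single arrays were left out, 23 of the 33 lower calls and 3 of the 5 higher ones (Rpl3l, Rpl24 and Rplp0) held in all 8 fits. Rpl7a lost its call without PBS array 1 (adjusted p = 0.062), and Rpl7l1 in 5 alternatives (adjusted p of up to 0.41, log2 change down to 0.15). Rplp0 had 1139, 1064 and 1158 with HY209, above its LPS and PBS arrays. Not past the test were 20 genes, among them Rps2 (-0.14 ± 0.12, adjusted p = 0.35), Rpl31 (-0.23 ± 0.10, adjusted p = 0.077) and Rps3a1 (-0.17 ± 0.15, adjusted p = 0.38). The smallest changes were those of Rpl38 (0.02 ± 0.09), Rpl23 (-0.02 ± 0.09) and Rpl41 (0.03 ± 0.08). Just 2 of 11 further probes had the call of the main probe here, and the dim second probe of Rps19 rose (0.39 ± 0.10) while the main one fell (-0.37 ± 0.09). The second probes of Rpl29 (-0.33 ± 0.14), Rps3 (-0.16 ± 0.12) and Rps9 (-0.07 ± 0.12) did not pass the test, where their main probes were lower (-0.42 ± 0.09, -0.55 ± 0.10 and -0.37 ± 0.12). For Rpl23 (-0.71 ± 0.13 and -0.94 ± 0.20), Rpl31 (-1.11 ± 0.11) and Rps24 (-0.72 ± 0.16) the other probes were lower and for Rpl38 (0.96 ± 0.12) higher, where the main ones did not pass.

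Other genes of the translation machinery were counted from lists. Of 46 ribosome biogenesis genes, 17 fell and 3 rose after LPS (median log2 change -0.19). The falls are 37.0% of the list, against 30.2% of all genes. With HY209 against LPS 16 rose and 0 fell (median 0.27), and these rises are 34.8% of the list against 6.15% of all genes. Among those that rose with HY209 were the nucleolar proteins Gnl3 (0.61 ± 0.08, adjusted p = 0.0013) and Tcof1 (0.57 ± 0.08), the rRNA methyltransferase Fbl (0.56 ± 0.09) and Nop56 (0.70 ± 0.20, adjusted p = 0.045). After LPS, Pes1 (-1.17 ± 0.11), Nop10 (-1.08 ± 0.10), nucleolin (Ncl, -0.90 ± 0.12) fell, while Polr1a, a subunit of RNA polymerase I, rose from 4024 and 4161 to 7820, 7748 and 8824 (adjusted p = 4.2e-05). Another list held elongation and release factors, among them mRNAs with TOP tracts, and also Abce1, Tpt1, Naca and Btf3. Of its 13 tested genes, 6 fell and 1 rose after LPS (median -0.20, 46.2% fell against 30.2% of all genes). With HY209 5 rose and 0 fell (median 0.24, 38.5% rose against 6.15%). The elongation factor subunits Eef1d and Eef1b2 changed by -1.10 ± 0.10 and -0.91 ± 0.11 after LPS, and by 0.41 ± 0.09 and 0.49 ± 0.09 with HY209. The release factor Gspt1 changed by -1.13 ± 0.10 and 0.46 ± 0.09, and Naca fell after LPS (-0.77 ± 0.09). The 1 that rose, named after its value was seen, was Eif5a (0.67 ± 0.16).

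Of 29 initiation factors, 14 (48.3%) fell and 5 (17.2%) rose after LPS (median -0.32), against 30.2% and 25.7% of all genes, with the helicase Eif4a2 at -1.07 ± 0.09, and 3 (10.3%, against 6.15%) rose with HY209, namely Eif3b (0.56 ± 0.11), Eif3i (0.36 ± 0.08) and Eif3l (0.30 ± 0.08). The 69 mitochondrial ribosomal proteins, which are built into a separate ribosome, had 19 (27.5%) lower and 10 (14.5%) higher after LPS (median -0.10), against 30.2% and 25.7% of all genes. With HY209 3 (4.35%) were higher and 0 lower (median 0.12), against 6.15% and 3.48%, so neither count stands above the background. Of 13 tested genes listed as mTORC1 genes or regulators of ribosomal protein mRNAs, 4 (30.8%) rose and 3 (23.1%) fell after LPS (median 0.01). These shares are near the 25.7% and 30.2% of all genes. Among the listed genes were Eef2k, the kinase that inhibits elongation (-1.72 ± 0.11), and Tsc1, an inhibitor of mTORC1 (0.89 ± 0.09). With HY209 1 gene, Tsc1, passed the test (-0.31 ± 0.08, adjusted p = 0.038). Fau, whose product holds the small subunit protein eS30, is left out by the symbol rule. It had 46238 and 47569 in PBS, 29220, 28524 and 29220 after LPS and 32839, 32126 and 34524 with HY209. Its log2 change after LPS was -0.70 ± 0.09, and that with HY209 against LPS did not pass the test (0.19 ± 0.08, adjusted p = 0.14). Rpsa, the other ribosomal protein outside the rule that was tested, did not pass the test after LPS (0.11 ± 0.12, adjusted p = 0.49), with 174 and 166 in PBS and 200.1, 167 and 170 after LPS, at the edge of background.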

How the data were processed

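The authors deposited intensity values for 8 arrays on a linear scale, quantile normalized between arrays and not background-subtracted, as the values show. The submitters' processing notes name GenomeStudio 2011.1 and R 2.15.0. Another 16 columns, in a second table, carry names that fit no sample title and were left out. The deposited intensity values were corrected with normexp (offset 50), quantile normalized and log2 transformed in limma 3.58.1 (R 4.3.3). Background was set from the mode of the intensities (148.4) and the spread below it (0.11 in log2), giving a 95% bound of 168.8, and probes above it on at least 2 arrays were kept (14743 of 25697). Detection p-values were not used. Of all probes 23978 had 1 gene symbol, 0 had several and 1719 had none, and 23962 matched RefSeq by Entrez identifier. The brightest probe stood for a gene. Differences between groups were tested in 1 fit over 8 arrays (lmFit and eBayes, two-sided, 5 residual and 6.59 prior degrees of freedom), adjusted over 10219 genes with a threshold of 0.05. The number of arrays limits the precision, with a median standard error of 0.11, 0.10 and 0.11 in the 3 comparisons. The fit was tested on simulated data of 10219 genes, of which 200 were changed in each comparison. It called 70%, 89% and 78% of genes changed by 0.5 in log2 for LPS to PBS, HY209 to LPS and HY209 to PBS. Of those changed by 1 it called 100%. In the data 55.9%, 9.63% and 47.7% of genes passed the test in these comparisons, so the simulated rates need not hold for them.

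The genes and lists were chosen with earlier results of these data known. Named are, per comparison, the 10 largest falls, the rises (up to 10), the 3 smallest changes, genes below background, probes that disagree, paralogs with their parents, and up to 4 genes per list. Sequences are from RefSeq (GRCm38.p6), where 55 of 64 genes had an entry. Replicate numbers were checked for pairing: residuals of 7 same-numbered pairs correlated from -0.19 to 0.30. The labels do not state a pairing, so the number was used as a block only in an alternative. Alternatives were background correction, scaling, filter, probe choice, variance prior, array weights, block, the groups fitted and each array left out.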

Additional observations from a re-analysis of the deposited data

How the results depend on the processing

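Of 270 recomputed values for 15 results (counts of ribosomal protein genes and of all genes, and medians), 259 stayed close to the main value, within 1.5 times for counts, and no count or median of ribosomal protein genes changed direction. Centred on the median of the other genes, the balance of all genes turned, from 2628 higher and 3082 lower after LPS to 2980 and 2780, and from 2211 and 2663 for HY209 against PBS to 2552 and 2411. The falls after LPS numbered 42 to 48 under the 10 other settings and 38 to 46 without single arrays, and the rises 3 to 5 and 3 to 4. For HY209 against LPS the rises numbered 19 to 35 under other settings (35 with an intensity trend, 19 without a filter) and 11 to 25 without single arrays, and the falls stayed at 0. All genes higher in that comparison numbered 628, and 258 to 750 without single arrays. All genes lower numbered 356, with 232 without a filter on dim probes, 236 with the lowest-mean probe per gene and 140 to 380 without single arrays; the cause was not tested, beyond the fewer arrays in the fit. For HY209 against PBS the lower genes numbered 30 to 38, and 24 to 33 without single arrays. With the replicate number as a block, 44 ribosomal protein genes fell and 5 rose after LPS, 27 rose with HY209, and 32 were lower and 5 higher than PBS, so the pairing moved no count by over 1.5 times. Residuals of the same-numbered HY209 and LPS arrays correlated at 0.05, 0.30 and 0.28, and those of pairs with a PBS array from -0.19 to 0.10. Arrays with different numbers were not compared, so whether same-numbered arrays share a deviation was not tested. The labels do not say that a number marks a batch. Probes near 66399 or near 168.8 limit what changes could be seen.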

Other observations

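The kinase genes that share the Rps prefix but encode no ribosomal protein were left out by the symbol rule and are given here as values chosen after the data were seen. Rps6ka3, an S6 kinase of the RSK family, had 390 and 402 in PBS and 477, 490 and 462 after LPS (0.32 ± 0.10, adjusted p = 0.016). Rps6ka5 had 453 and 525 in PBS and 346, 438 and 344 after LPS (-0.46 ± 0.14, adjusted p = 0.017). Rps6kl1, close to background with 169 and 169 in PBS and 142 to 156 after LPS, changed by -0.31 ± 0.10 (adjusted p = 0.021), though no LPS array was above background. Rps6kb2 did not pass the test (0.16 ± 0.13, adjusted p = 0.31), and Rps6ka6 and Rps6kc1 were not above background on any array. Of Rps6ka3 and Rps6ka5, neither passed the test with HY209 against LPS (0.05 ± 0.09 and 0.02 ± 0.13). Rps19bp1, which encodes a nucleolar binding partner of Rps19, had 303 and 300.2 in PBS and 309, 320 and 286 after LPS (0.02 ± 0.13, adjusted p = 0.92).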
